A study of Mus musculus with 78 samples.

Results

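The 12 central amygdala arrays compared here came from mice bred for high (HAB, 6 arrays) or normal (NAB, 6 arrays) anxiety-related behavior, and they were 12 of the 75 arrays with values in the series. They were chosen by title alone, as the arrays labelled CeA_HAB and CeA_NAB, 1 array per mouse number. The labels hold 21 mouse numbers, 7 of them NAB, which is more than the animals the study describes, so that mice are identified by label number only. All animals were male CD-1 mice aged 10 weeks of breeding generation 25, and each line is a single selectively bred population, so a difference between HAB and NAB is a difference between 2 breeding lines. The CeA of 5 mice bred for low anxiety-related behavior (LAB) was measured in the same way. These LAB arrays also entered the choice of tested probes and the estimate of spread, and their values are given beside the comparison. The tissue was cut by laser microdissection, and the RNA of each mouse was hybridised to an Illumina MouseWG-6 bead array, on which each probe gives a normalised intensity, the brightness of beads that carry 1 short sequence. A probe reads 1 site of a transcript, so intensities of different probes are not set against each other.

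The central amygdala is the main output nucleus of the amygdala. Most of its neurons release GABA, and they project to the hypothalamus and brainstem, where they shape defensive and autonomic responses. Peptides such as corticotropin-releasing hormone (CRH), somatostatin, enkephalin and neurotensin, and enzymes such as protein kinase C delta (Prkcd), mark its cell classes. The comparison asks which transcripts differ between the anxious and the normal line in this nucleus.

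Most listed markers of the central amygdala were detected, which by itself does not set this nucleus apart. Of 46 listed central amygdala and striatal-type genes on the array, 41 were above background, where background was the 95th percentile of odorant and pheromone receptor probes on each array (8.30 to 9.42 on the 6 HAB arrays and 8.82 to 9.08 on the 6 NAB arrays). Of 24 listed basolateral amygdala and cortical glutamate genes on the array, 21 were above background as well. Gad2, which makes GABA, averaged 345.6 ± 61.6 in HAB and 338.5 ± 44.9 in NAB (SD, n = 6 each). Prkcd averaged 102.0 in HAB and 101.4 in NAB. The listed genes Crh, Vip, Calcrl, Avpr1a and Rxfp1 were not above background in enough arrays to be tested, so CRH itself could not be compared here. In dissected tissue, fewer cells of a type and less RNA per cell cannot be told apart.

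Of 17974 probes tested, 370 differed between HAB and NAB at an adjusted p of 0.05 (2.06%). Of these, 229 were higher in HAB (1.27%) and 141 were lower (0.784%), which is 61.9% higher. That split depended on scaling: after each array was centred on its median, 158 of 325 called probes were higher in HAB (48.6%), and after quantile normalisation 169 of 338. On the scale used here the median log2 difference of all tested probes was 0.07. The 6 HAB and the 6 NAB arrays did not overlap in 374 tested probes (2.08%), among them 286 of the 370 called probes. The called probes fell in 275 named genes out of 10458 tested (2.63%), and 75 called probes had no gene name. Each count of called genes on a list below is to be read beside this 2.63%. In 90 probes higher and 73 probes lower in HAB the log2 difference was at least 1.

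The arrays of both lines were similar in most overall values, with tested probes slightly higher on average in HAB. The median log2 intensity of tested probes averaged 4.415 in HAB and 4.347 in NAB (exact permutation test, two-sided, p = 0.0952). A share of 35.0% ± 1.67 of probes was above background on the HAB arrays and 34.7% ± 0.764 on the NAB arrays (SD, n = 6 each; exact permutation test, two-sided, p = 0.682). Arrays correlated at r = 0.943 to 0.982 within a line and at 0.938 to 0.973 between HAB and NAB. The summed level of 5 tested blood cell genes differed: it lay between 1885 and 4177 on the HAB arrays and between 1379 and 1815 on the NAB arrays. This sum includes the globin probes described below. The sums of the astrocyte, microglia and macrophage, and endothelial and pericyte markers were 1.15, 1.16 and 1.15 times as high in HAB as in NAB (exact permutation tests, two-sided, p = 0.00866, 0.00649 and 0.00649, and adjusted p = 0.0303 for each over 14 array-level tests), with overlapping ranges. The sums of the other 5 cell type lists were also higher on average in HAB without passing; the choroid plexus sum averaged 78.6 in HAB and 66.4 in NAB (exact permutation test, two-sided, adjusted p = 0.0606) and that of central amygdala neurons 4881 in HAB and 4423 in NAB (exact permutation test, two-sided, adjusted p = 0.182). Of 8 listed choroid plexus and ependyma genes on the array, 3 were tested and none was called, and the defining marker Ttr was below background. All sums were taken on the deposited scale, without centring. Sums of gene lists grouped by function were higher in HAB too, such as 1.06 times for the PCR reference genes. The genes of earlier work on these lines were the exception (0.83 times).

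Among named genes, Cops8, B3galt6, Ctsb and Nipbl had the largest falls in HAB. Cops8 encodes a subunit of the COP9 signalosome, which controls cullin ubiquitin ligases. Its probe 2810541 read 4.05, 7.71 and 10.1 on the lowest, median and highest HAB array, against 96.8, 110 and 123 on the NAB arrays (log2 difference -3.90 ± 0.19, SE; adjusted p = 2.5e-10). The signal was above background on 2 of 6 HAB arrays and on every NAB array. Ctsb, the lysosomal protease cathepsin B, read 12.1, 17.7 and 21.1 in HAB against 92.1, 144 and 187 in NAB (log2 difference -3.02 ± 0.20; adjusted p = 1.55e-08). Nipbl, which loads cohesin onto chromosomes, read 7.79, 8.47 and 8.70 in HAB against 44.6, 51.4 and 59.6 in NAB (log2 difference -2.62 ± 0.15, adjusted p = 3.57e-09). Its signal was above background on 1 of 6 HAB arrays, so the size of its fall, like that of Cops8, is poorly bounded. No HAB array overlapped a NAB array in any of these genes.

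Other genes among the 14 with the largest falls follow. Msmo1, a demethylating enzyme of cholesterol synthesis, read 11.9, 25.7 and 32.8 in HAB against 81.8, 90.2 and 99.8 in NAB (log2 difference -2.04 ± 0.19; adjusted p = 1.81e-06). Slc25a18, a mitochondrial glutamate carrier found mainly in astrocytes, read 15.1, 19.0 and 32.4 in HAB against 65.6, 108 and 128 in NAB (log2 difference -2.40 ± 0.38; adjusted p = 0.000831). Mdh1, cytosolic malate dehydrogenase, and Pfkp, a phosphofructokinase isoform, were at background on all HAB arrays at the probes called, so that they were at least 2.29-fold and at least 1.38-fold lower, while their further probes differed by 0.40 and 0.45 for Mdh1 and by 0.28 and 0.64 for Pfkp without passing. The Pfkp probe was above background on 5 of 6 NAB arrays. These bounds set the NAB mean against the lowest signal above background. The other falls among the 14 most extreme were in B3galt6, which builds the linker that attaches glycosaminoglycans to proteins (at least 6.02-fold lower), Masp2, a protease of the complement lectin pathway (at least 2.67-fold), Arfgef2, an activator of ARF GTPases in membrane traffic (at least 2.32-fold), Lrrc40 (at least 2.26-fold), Sbf2, a phosphatase-like regulator of endosomes (at least 1.83-fold), Tfb1m, which methylates mitochondrial ribosomal RNA (at least 1.52-fold), and Ipo7, a nuclear import receptor (at least 1.41-fold).

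Among named genes higher in HAB, Cldn12 and Krit1 led, and 1 called probe without a gene name (6100440, 37.8 to 54.0 in HAB and 2.53 to 4.62 in NAB) had a larger difference. Cldn12 is a claudin of tight junctions. Its probe 6350341 read 26.8, 50.4 and 56.6 in HAB against 1.38, 3.56 and 6.24 in NAB, where all arrays were at background (at least 4.85-fold higher; adjusted p = 4.05e-07). Krit1, the product of a gene mutated in cerebral cavernous malformations in people, read 46.5, 69.4 and 90.7 in HAB against 3.40, 5.66 and 10.5 in NAB (log2 difference 3.54 ± 0.23; adjusted p = 1.48e-08). Serpini1 is neuroserpin, a neuronal inhibitor of tissue plasminogen activator. It read 46.7, 58.5 and 75.7 in HAB against 6.76, 7.77 and 34.2 in NAB (log2 difference 2.58 ± 0.31, SE; adjusted p = 2.94e-05). Sri, the calcium-binding protein sorcin, read 35.3, 38.7 and 43.3 in HAB against 6.85, 7.54 and 10.4 in NAB (log2 difference 2.31 ± 0.10, adjusted p = 1.22e-10), and its second probe rose too. The probes given for Krit1, Serpini1 and Sri were each above background on 1 of 6 NAB arrays, so the sizes of these rises are poorly bounded.

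The rest of the 14 highest were spread over several functions. Stx3, a syntaxin of vesicle fusion, read 26.4, 30.6 and 33.1 in HAB against 4.12, 4.82 and 6.39 in NAB (at least 3.36-fold higher; adjusted p = 1.74e-10). Cptp, a transfer protein for ceramide 1-phosphate, was at least 3.00-fold higher, H2-T23, a non-classical MHC class I chain, at least 3.12-fold, Vars2, the mitochondrial valyl-tRNA synthetase, at least 2.46-fold, Rtn4, the neurite growth inhibitor Nogo, at least 1.84-fold and Riok1, a kinase of ribosome maturation, at least 1.65-fold. Sdhaf1, an assembly factor of succinate dehydrogenase, read 30.8, 37.6 and 49.3 in HAB against 4.84, 7.86 and 9.62 in NAB (log2 difference 2.35, adjusted p = 9.89e-09). Its signal was above background on 1 of 6 NAB arrays. Odr4 and Hddc3 rose by 2.32 and 2.44 on the log2 scale. In none of the 28 genes did the HAB and NAB arrays overlap, which the naming rule required. The LAB arrays did not take one side: their mean was nearer HAB in 6 of the 14 highest and 5 of the 14 lowest genes, and nearer NAB in 8 and 9. Over all 370 called probes the LAB mean was nearer HAB in 188 and nearer NAB in 182.

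Of 17 tested GABA genes, 2 were called, where 2.63% of all tested genes were. Slc32a1, the transporter that loads GABA into synaptic vesicles, rose in HAB: it read 432, 510 and 566 on the lowest, median and highest HAB array, against 222, 281 and 397 in NAB (log2 difference 0.83 ± 0.13; adjusted p = 0.000829), and 453 to 640 in LAB. All HAB arrays were above all NAB arrays. Gabbr1, a subunit of the GABA-B receptor, fell at 1 probe, which read 56.1, 74.9 and 83.5 in HAB against 106, 125 and 133 in NAB (log2 difference -0.73 ± 0.10; adjusted p = 0.000188). The second Gabbr1 probe had a log2 difference of 0.17 (adjusted p = 0.687), and the mean of both probes did not pass (-0.28, adjusted p = 0.0871). The median log2 difference over the 23 tested probes of the list was 0.06, against 0.07 for all probes.

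Crhr1, the receptor through which CRH drives hormonal and behavioral stress responses, was lower in HAB. The probe read 2.47, 3.95 and 5.56 on the HAB arrays, all at background, against 10.1, 11.6 and 16.1 on the NAB arrays, at least 1.35-fold lower (adjusted p = 6.22e-05). LAB arrays read 2.74 to 6.81, at background like HAB. The NAB values themselves stood only a little above background, so the size of the fall is poorly bounded. It was the only one of 19 tested genes of the CRH system and glucocorticoid response that passed; Fkbp5, a gene induced by glucocorticoids, differed by -0.13 (adjusted p = 0.743) and Crhbp, the CRH binding protein, by 0.03 (adjusted p = 0.958).

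None of the 23 tested genes on the neuropeptide list passed in limma (0 of 24 probes, 2 at an unadjusted p under 0.05). The peptide gene Ghrh, which was placed on another list, did pass and is given below. Sst averaged 412.4 ± 92.8 in HAB and 336.6 ± 90.5 in NAB (SD, n = 6 each; log2 difference 0.31, adjusted p = 0.601). Tac2, the neurokinin B precursor, averaged 99.4 in HAB and 124.8 in NAB (adjusted p = 0.781), and Npy 146.9 in HAB and 139.4 in NAB (adjusted p = 0.962). Among the listed genes, Gal, the galanin precursor, had the widest difference and spread. It read 21.4, 76.2 and 145 in HAB against 11.8, 22.2 and 32.9 in NAB (log2 difference 1.68 ± 0.47, adjusted p = 0.0922), and 50.8 to 204 in LAB. The lowest HAB arrays, at 21.4 and 30.0, lay within the NAB range, and the other 4 lay above it.

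Of 41 tested central amygdala and striatal-type genes 4 were called, against 2.63% of all tested genes, Slc32a1 upward and Crhr1, Meis2 and Pde10a downward, with a median log2 difference of 0.01 over 52 probes. Meis2, a homeobox transcription factor of the developing striatum and amygdala, read 23.8, 37.3 and 42.5 in HAB against 57.0, 61.9 and 76.0 in NAB at 1 probe (adjusted p = 0.000277), while its other probes differed by -0.15 and 0.52 without passing. Pde10a, the phosphodiesterase of striatal-type neurons, averaged 25.2 in HAB and 37.0 in NAB (log2 difference -0.55 ± 0.14; adjusted p = 0.0456), with overlapping arrays, and the call was lost when any of 9 single arrays was left out (HAB mouse 01, 20, 17, 11 or 09, or NAB mouse 18, 02, 08 or 13; highest adjusted p = 0.119). None of 21 tested basolateral amygdala and cortical glutamate genes passed in limma (unadjusted, 3 of 33 probes). Ghrh, growth hormone-releasing hormone and the 1 called of 13 tested genes of thalamic and hypothalamic neurons, read 2.69 to 6.74 in HAB, at background, against 9.02 to 16.4 in NAB, at least 1.50-fold lower (adjusted p = 0.000202).

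**Figure D1:**
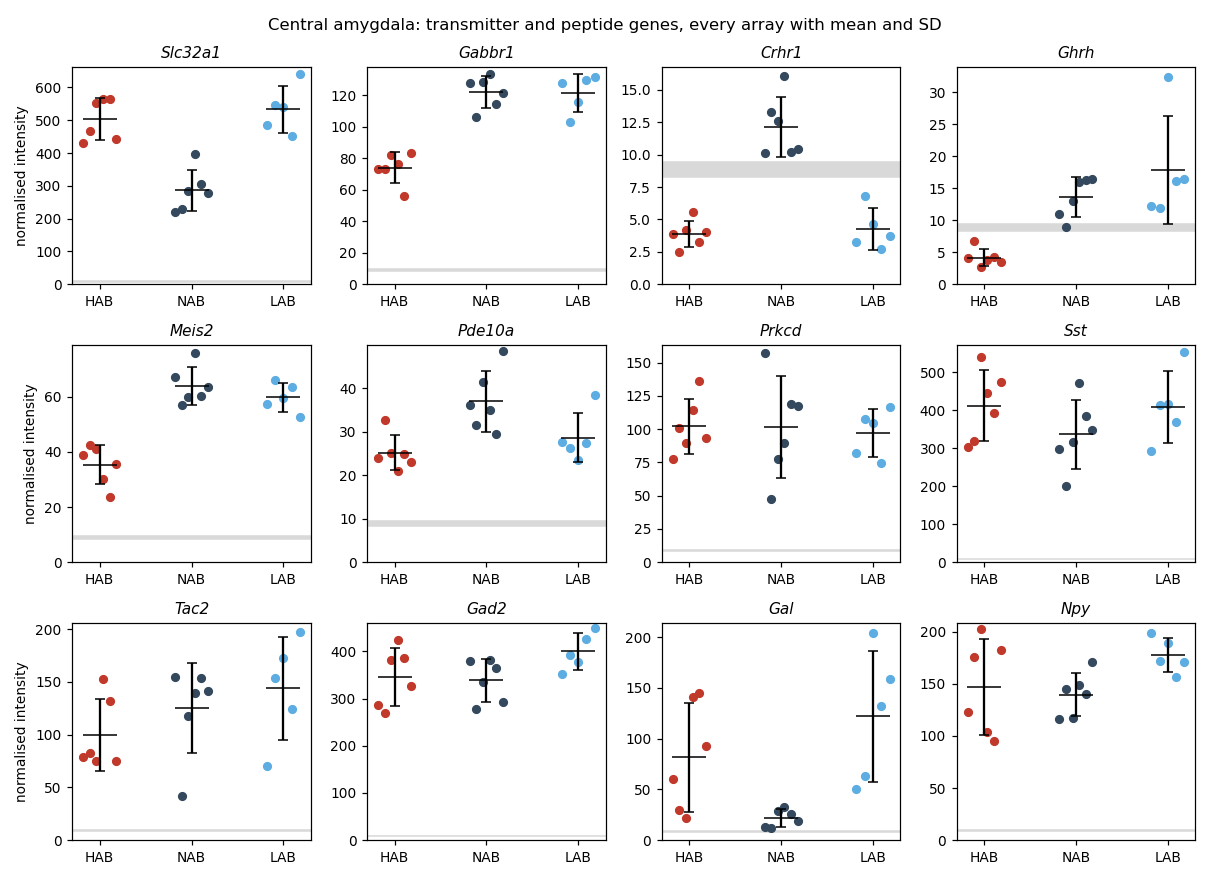
Normalised intensity (linear axis from 0) of 12 transmitter, peptide and central amygdala genes on every array of the HAB, NAB and LAB central amygdala, with the mean and SD as bars and the background range as a grey band. Slc32a1 lay between 432 and 566 in HAB and between 222 and 397 in NAB, Crhr1 and Ghrh were below the band in HAB, and Prkcd, Gad2 and Npy overlapped between the lines.

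Glutamate handling and Gq signalling held single called genes. Slc1a2, the main glial glutamate transporter, read 105, 128 and 134 in HAB against 74.9, 82.0 and 104 in NAB at the called probe (log2 difference 0.55 ± 0.09; adjusted p = 0.0012), and its other probes had differences of 0.28 and 1.46 that did not pass. With Slc25a18 it made 2 of 29 tested glutamate genes called (6.9%, against 2.63% of all tested genes), 1 in each direction (median log2 difference 0.09 over 48 probes). Ntsr2, a neurotensin receptor that also marks astrocytes, read 226 to 310 in HAB against 166 to 214 in NAB (log2 difference 0.45; adjusted p = 0.00922), a call that was lost after median centring (adjusted p = 0.149). Gnaq, the alpha subunit of Gq proteins, read 55.5, 68.1 and 83.0 in HAB against 15.0, 18.7 and 20.5 in NAB at 1 probe (log2 difference 1.90 ± 0.11; adjusted p = 1.83e-09), while its 3 other probes lay between -0.42 and 0.01. The astrocyte list held Slc1a2, Ntsr2 and Slc25a18 as its 3 called genes of 18 tested (16.7%, against 2.63% of all tested genes). The summed astrocyte level given above was also higher in HAB. That sum includes these genes, and the part of astrocyte content in these differences was not tested. No gene passed in limma among the 20 tested for monoamine and acetylcholine signalling, the 29 for potassium channels, the 18 immediate early genes or the 18 clock genes. Stx3 was the 1 called of 40 tested genes on the vesicle release list, which did not hold Dnajc5, given below. At an unadjusted p under 0.05, which 10.8% of all tested probes reached, the lists without a call held 1 of 23 probes for monoamines and acetylcholine, 7 of 39 probes for potassium channels, 3 of 23 probes for immediate early genes and 3 of 30 probes for the clock. Abhd12, a lipase of endocannabinoids, was the 1 called of 12 tested opioid and endocannabinoid genes (29.5 to 37.0 in HAB and 39.5 to 42.9 in NAB, adjusted p = 0.0316), and its call was lost without any of 8 single arrays (HAB mouse 01, 05, 17 or 11, or NAB mouse 02, 04, 15 or 13, highest adjusted p = 0.088).

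All 3 tested probes of Gstp1, which conjugates glutathione to reactive compounds, rose in HAB. At 1 of them it read 462, 556 and 598 in HAB against 308, 347 and 393 in NAB (log2 difference 0.64 ± 0.08; adjusted p = 0.000104), and the others rose by 0.69 and 0.84. Gstp1 has near-identical copies in the mouse that these probes may also read. It was the 1 called of 20 tested genes of glyoxalase and carbonyl detoxification; Glo1, a glyoxalase studied before in these lines, averaged 218 in HAB and 279 in NAB (adjusted p = 0.54). In sterol synthesis 3 of 20 tested genes were called (15.0%, against 2.63% of all tested genes). Msmo1 fell, and Spring1, a regulator of SREBP processing (21.7 in HAB and 8.56 in NAB, adjusted p = 0.00528), and Dhcr7, the last enzyme of cholesterol synthesis (18.0 to 27.1 in HAB and 10.7 to 19.7 in NAB, adjusted p = 0.0466), rose. The Dhcr7 call was lost when any of 9 single arrays was left out (HAB mouse 01, 20, 17, 11 or 09, or NAB mouse 18, 04, 08 or 13; highest adjusted p = 0.121). Ctsb was the 1 called of 45 listed lysosomal genes (2.22%). Pdhb, a subunit of pyruvate dehydrogenase (18.8 in HAB and 29.5 in NAB at the called probe, adjusted p = 0.00564, and 41.8 in HAB and 41.2 in NAB at another, adjusted p = 0.99), was the 1 called of 47 listed for the respiratory chain and pyruvate oxidation (2.13%). Cox7a1, a cytochrome c oxidase subunit outside that list, rose in HAB (log2 difference 0.41, adjusted p = 0.02 in limma).

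All 3 tested probes of H2-T23 rose in HAB. The first read 21.6, 26.8 and 45.6 in HAB against 4.15, 5.10 and 6.45 in NAB (adjusted p = 6.86e-07), the second 8.25 to 24.3 in HAB against 3.54 to 5.78 in NAB, and the third 15.2 to 21.8 in HAB against 9.22 to 13.3 in NAB. No other of the 9 tested genes on the list of MHC class I and antigen processing passed. B2m, the shared light chain, averaged 76.8 in HAB and 74.4 in NAB (adjusted p = 0.956). H2-T9, an MHC class I gene outside that list, rose in HAB at its 1 tested probe (log2 difference 1.74, adjusted p = 7.02e-08 in limma). Tyrobp, an adaptor of microglial receptors, read 6.74 to 13.4 in HAB, above background on 4 of 6 arrays, against 4.37 to 7.20 in NAB, at background on all, so that the lines overlapped and the bound was at least 1.14-fold higher (adjusted p = 0.00223). It was the 1 called of 14 microglia and macrophage genes, whose summed level was also higher in HAB. That sum includes Tyrobp itself, and the part of microglial content in this difference was not tested. H2-T23 belongs to a family of similar genes, and which copies its probes read was not tested.

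Hbb-bs, an adult beta globin and also among the 14 highest genes, had 9 tested probes, which disagreed in size. The most different read 168, 242 and 423 in HAB against 13.0, 21.3 and 109 in NAB (log2 difference 3.37 ± 0.53; adjusted p = 0.000764). A pair of others rose by 1.66 and 1.16 (adjusted p = 0.00101 and 0.0064), and the remaining 6 had differences of 0.32 to 0.66 that did not pass. A probe annotated to Hbb-b2, another beta globin name, went the other way, with 6.19, 8.68 and 9.79 in HAB against 13.2, 18.4 and 24.7 in NAB (log2 difference -1.19 ± 0.24; adjusted p = 0.00771). Beta globin genes are near-identical, so probes of this family may read more than 1 of them. Hba-a1, alpha globin, averaged 410.0 in HAB and 267.7 in NAB (log2 difference 0.56; adjusted p = 0.183), and Alas2, the erythroid heme synthesis enzyme, differed by 0.33 on the log2 scale (adjusted p = 0.498). The summed blood marker level given above includes these globin probes, so it is not a separate measure of blood. The part of blood content in these differences was not tested.

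Of 27 tested genes that the study had taken to quantitative PCR, 5 rose and 3 fell at a called probe (29.6%, against 2.63% of all tested genes). Gnaq, Hbb-bs, Hmgn3, Slc1a2 and Stx3 went upward, and Apbb1, Ctsb and Pdhb downward. The study chose this list for HAB against LAB, on arrays that include these, so its count is not independent evidence. For HAB against LAB in the entire brain, the paper's text names Ctsb, Hmgn3 and Pdhb among the differences that PCR bore out. It does not name Gnaq, Slc1a2, Apbb1 or Hbb-bs there. For Stx3 the paper reports that PCR gave the opposite direction to the arrays for HAB against LAB. It reports the PCR result again in separate basolateral amygdala samples. The paper proposes that sequence variants in Stx3 could explain stronger probe binding in HAB, which was not tested here. Hmgn3, a nucleosome-binding protein, read 140, 161 and 174 in HAB against 52.0, 76.4 and 90.8 in NAB at 1 probe (adjusted p = 0.000282), with differences of 0.03 and 0.21 at its other probes that did not pass. Apbb1, an adaptor that binds the amyloid precursor protein, read 103, 109 and 129 in HAB against 139, 180 and 204 in NAB (adjusted p = 0.00043). Of the genes named in earlier work on these lines, Avp, Glo1, Tmem132d and Enoph1, none passed. Gapdh, used as a reference in the PCR, differed by 0.03 to 0.08 over 5 probes. None passed among the 4 PCR reference genes, the 19 metallothioneins and zinc transporters, the 20 oligodendrocyte or the 18 endothelial and pericyte genes tested, with unadjusted p under 0.05 in 1 of 11 probes, 2 of 24 probes, 8 of 31 probes and 4 of 21 probes.

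**Figure D2:**
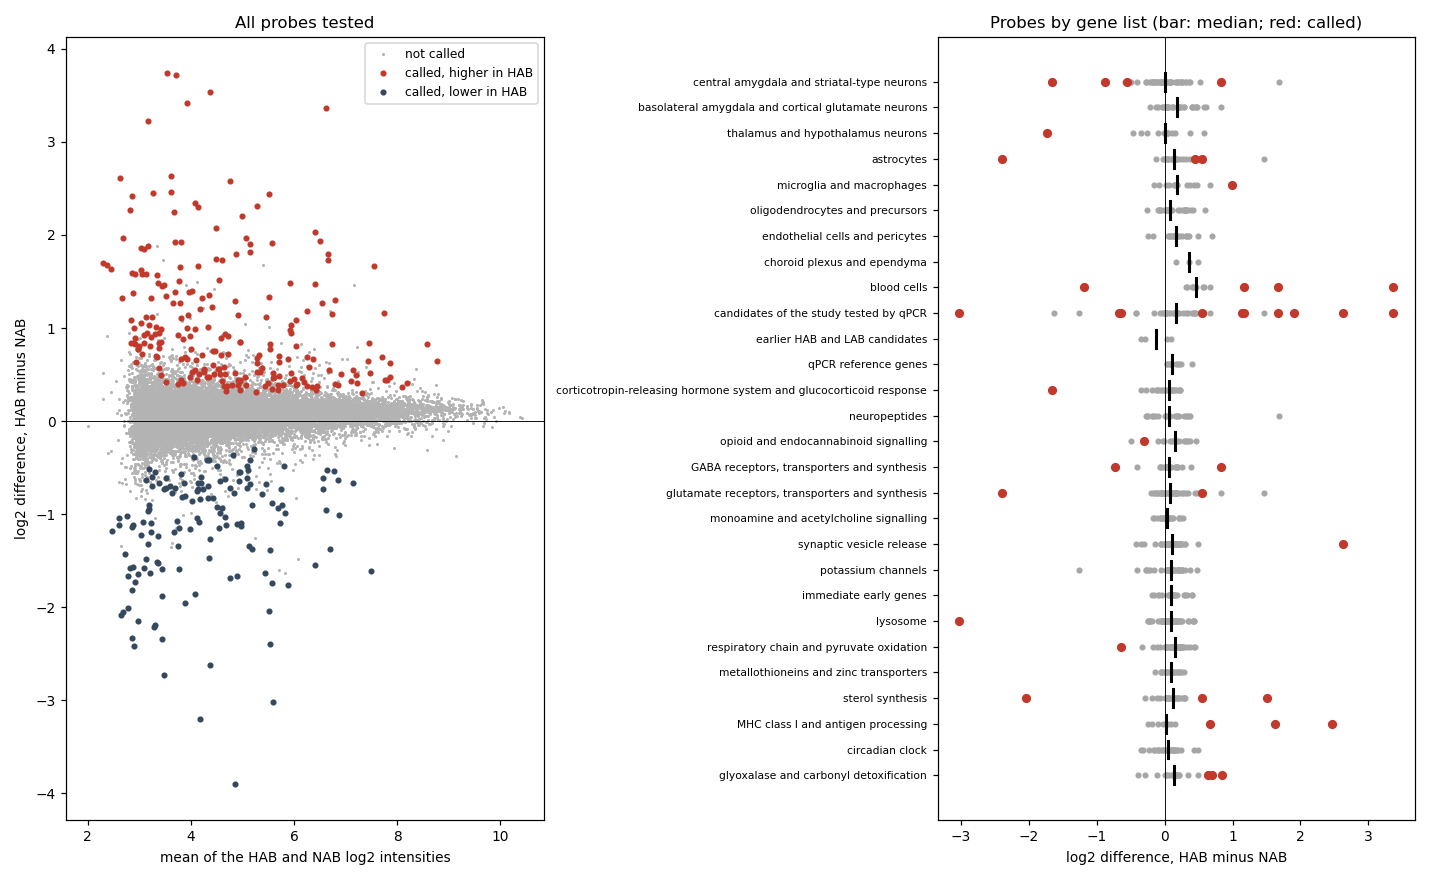
Left, the log2 difference of HAB minus NAB against the mean log2 intensity for all 17974 tested probes, with the 229 called higher in red and the 141 called lower in dark blue. Right, the log2 differences of the tested probes of each gene list, with called probes in red and the list median as a bar; the medians lie between -0.13 and 0.46, while single called probes reach beyond 2 in either direction.

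Called probes often stood alone within their gene. Of 116 genes with a called probe and at least 1 further tested probe, 101 had no further probe called, 14 had another called in the same direction and 2, Ltbp3 and Rpl21, one called in the opposite direction, where Rpl21 counts under both. Among the 28 highest and lowest genes, 16 carried a further tested probe, and for 12 no further probe passed. Nipbl had 4 further probes with differences of -0.02 to 0.06. Ctsb had a second probe at 53.8 in HAB and 39.8 in NAB (log2 difference 0.43; adjusted p = 0.109), opposite in sign to the fall of the first. Rtn4 had further probes at -0.85 and 0.13, and Mdh1 at 0.40 and 0.45. Single further probes differed by -0.19 for Vars2, 0.16 for Stx3, 0.67 for Krit1 and 0.17 for Arfgef2. Those of Lrrc40, Ipo7 and Sbf2 differed by 0.08, -0.01 and -0.83, and none of these passed. What sets the probes of a gene apart was not tested, and a called probe is therefore a difference at that probe's site, not of all transcripts of the gene.

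In 15 genes 2 or more probes were called. Gstp1, H2-T23 and Hbb-bs had 3 each, and Sri, B3galt6, Nudt19, a CoA-cleaving hydrolase, Rtf2, Ttc17, Mtdh, Dnajc5, the cysteine string protein of synaptic vesicles, Klc1, a kinesin light chain, Map1lc3a, an autophagy protein, and Krt12 had 2 each in the same direction. At 1 probe Nudt19 read 162, 171 and 186 in HAB against 64.3, 70.6 and 77.7 in NAB (log2 difference 1.31 ± 0.07; adjusted p = 9.02e-10). Rpl21, a ribosomal protein with many near-copies in the genome, had 3 probes that fell, by 0.72 and 0.93 on the log2 scale and at least 1.63-fold, and 1 that rose by 1.33. Ltbp3, a binding protein of latent TGF-beta, had 1 probe in each direction (0.34 and -1.16), and each call was lost in some of the fits that left out 1 array.

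Some called genes lay next to each other in the reference gene order. Of 273 called genes placed on RefSeq chromosomes, 72 (26.4%) had a called gene as the next tested gene on 1 side or the other, and so did 4.9% of all 10428 placed tested genes. The neighbours formed 41 adjacent pairs, 31 with the same and 10 with opposite directions. Joining called genes with at most 5 tested genes between them gave 14 stretches of at least 4 called genes, holding 81 (29.7%) of them. The densest ran from Cptp to Agrn, where 7 of 9 tested genes were called, and the longest from Nfs1 to Actr5, where 10 of 30 were called, with Ghrh falling and Slc32a1 rising. Krit1, Mterf1a, Cdk14, Cldn12 and Sri were 5 of 8 tested genes of another stretch, and Stx3, Gnaq and Vps13a lay in a stretch of 20 tested genes with 7 called. The array files name no genome build, so no positions are given for probes. This account of positions is a description, without a test.

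**Figure D3:**
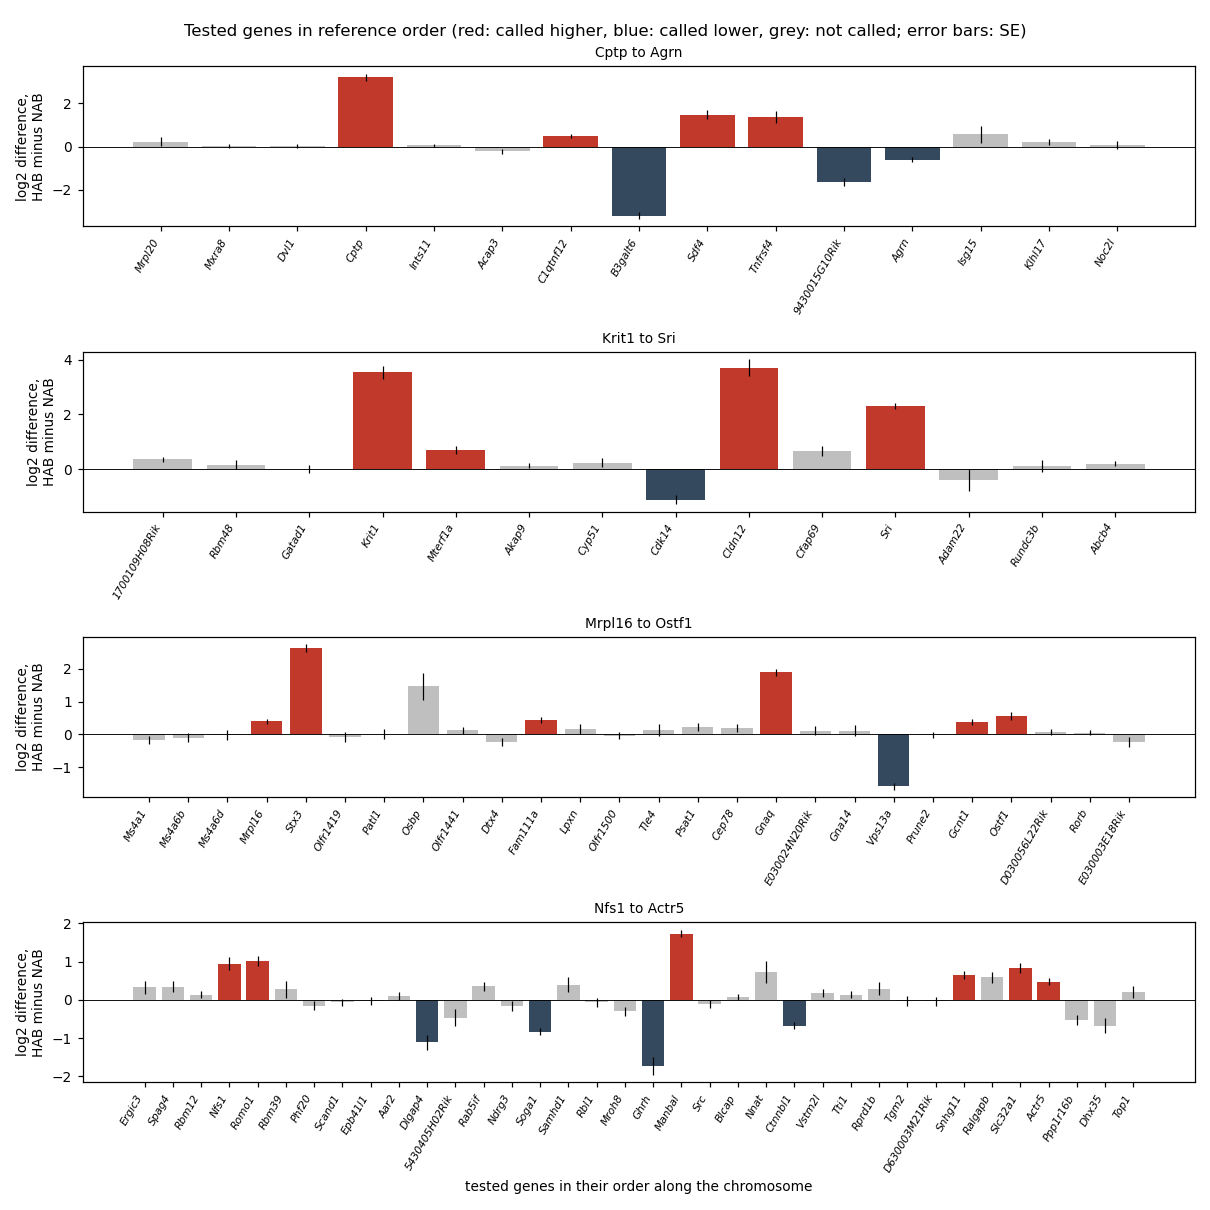
Log2 difference of HAB minus NAB (bars, with the SE) for the tested genes of 4 stretches and their flanks, in reference order along the chromosome, using the probe with the lowest adjusted p per gene. Called genes that rose (red) and fell (dark blue) stand next to each other, as B3galt6 (at least 6.02-fold lower) and Sdf4 (1.48), and uncalled genes (grey) among them reach 1.46 for Osbp.

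Within the stretch from Cptp to Agrn, B3galt6 and Sdf4 start back to back on opposite strands and moved in opposite directions. The first probe of B3galt6 read 3.76, 6.47 and 8.27 in HAB against 46.4, 54.1 and 60.2 in NAB (adjusted p = 4.03e-10), and its second probe read 9.41 to 14.8 in HAB against 15.4 to 18.5 in NAB. Sdf4, a calcium-binding protein of the Golgi lumen, read 74.6, 106 and 120 in HAB against 25.8, 36.6 and 47.6 in NAB (log2 difference 1.48 ± 0.21; adjusted p = 0.000217). The bases between their annotated starts are shown because they lie upstream of both genes in the reference. Whether they act as a promoter of either gene was not tested. They are from RefSeq promoter windows on GRCm38.p6, chr4:155992679-155992842, plus strand, 164 bases, reading from the B3galt6 start toward the Sdf4 start, and the capitals mark the longest run of letters that occurs 5 times without overlap.

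B3galt6 and Sdf4: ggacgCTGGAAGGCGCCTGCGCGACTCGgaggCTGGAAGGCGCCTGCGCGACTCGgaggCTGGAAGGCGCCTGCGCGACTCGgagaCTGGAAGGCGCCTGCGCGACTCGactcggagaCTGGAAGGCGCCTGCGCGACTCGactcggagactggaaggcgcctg

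The capitals are 5 copies of a 23-letter unit, CTGGAAGGCGCCTGCGCGACTCG, with a few bases between them. Searched on both strands in the 164 bases before the start in all 32851 RefSeq promoter windows, the unit occurred in 3 (0.00913%), 1 of B3galt6 and a pair of Sdf4, which are this same stretch. The sequence is the reference's and not that of the HAB or NAB mice, whose own sequence was not analysed here.

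Many of the differences also passed in other regions of the same lines, and 80 of the 370 passed in none of them. These are separate arrays but, by label number, largely the same animals, as all HAB mice and all but 1 NAB mouse of each of the Cg, PVN and BLA groups, and all mice of the DG groups, were also in the CeA groups. In the cingulate cortex (Cg) 390 probes passed (2.13%), in the hypothalamic paraventricular nucleus (PVN) 316 (1.71%), 562 in the basolateral amygdala (BLA, 3.05%) and 123 in the dentate gyrus (DG, 0.659%). Of the CeA calls that could be tested there, 254 of 349 passed with the same sign in the Cg, 204 of 354 in the PVN, 225 of 344 in the BLA, and 91 of 345 in the DG with its 3 HAB and 3 NAB arrays. None passed with the opposite sign. Cops8 had log2 differences of -3.90 in the CeA, -4.07 in the Cg, -3.65 in the PVN, -4.23 in the BLA and -2.62 in the DG. Slc32a1 differed by 0.83 in the CeA, 0.97 in the Cg, 1.26 in the PVN, 1.04 in the BLA and 0.48 in the DG.

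A test of the difference itself, the HAB minus NAB difference of the CeA against the mean of the other 4 regions with the mouse as a random block, called 5 of 17974 probes (0.0278%). Sppl2a, an intramembrane protease of immune cells, read 23.2, 29.3 and 33.6 in HAB against 8.24, 12.3 and 14.4 in NAB; its log2 difference was 1.32 in the CeA and 0.82, 0.32, 0.20 and -0.03 in the Cg, PVN, BLA and DG (CeA minus the others 1.00 ± 0.20, adjusted p = 0.0278). Tmie, a membrane protein of inner ear hair cells, read 16.9, 20.7 and 28.2 in HAB against 39.8, 47.7 and 52.6 in NAB (-1.13 in the CeA, CeA minus the others -0.71 ± 0.14, adjusted p = 0.0231). Cd59a, an inhibitor of complement lysis, read 50.6 to 76.8 in HAB against 27.6 to 47.8 in NAB (0.83 in the CeA, CeA minus the others 0.64, adjusted p = 0.0409), and Col26a1, a collagen, 15.9 to 20.9 in HAB against 3.00 to 11.3 in NAB (1.45 in the CeA, CeA minus the others 1.16, adjusted p = 0.0278). C1qtnf12, a secreted C1q-like protein, read 55.8 to 72.5 in HAB against 37.5 to 52.5 in NAB (0.48 in the CeA and -0.46 in the PVN; CeA minus the others 0.61, adjusted p = 0.00294). After median centring of the arrays only Sppl2a and Tmie passed. Col26a1 also lost its call in this test with 16 added before log2 (adjusted p = 0.107). Its NAB signal in the CeA was above background on 1 of 6 arrays.

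**Figure D4:**
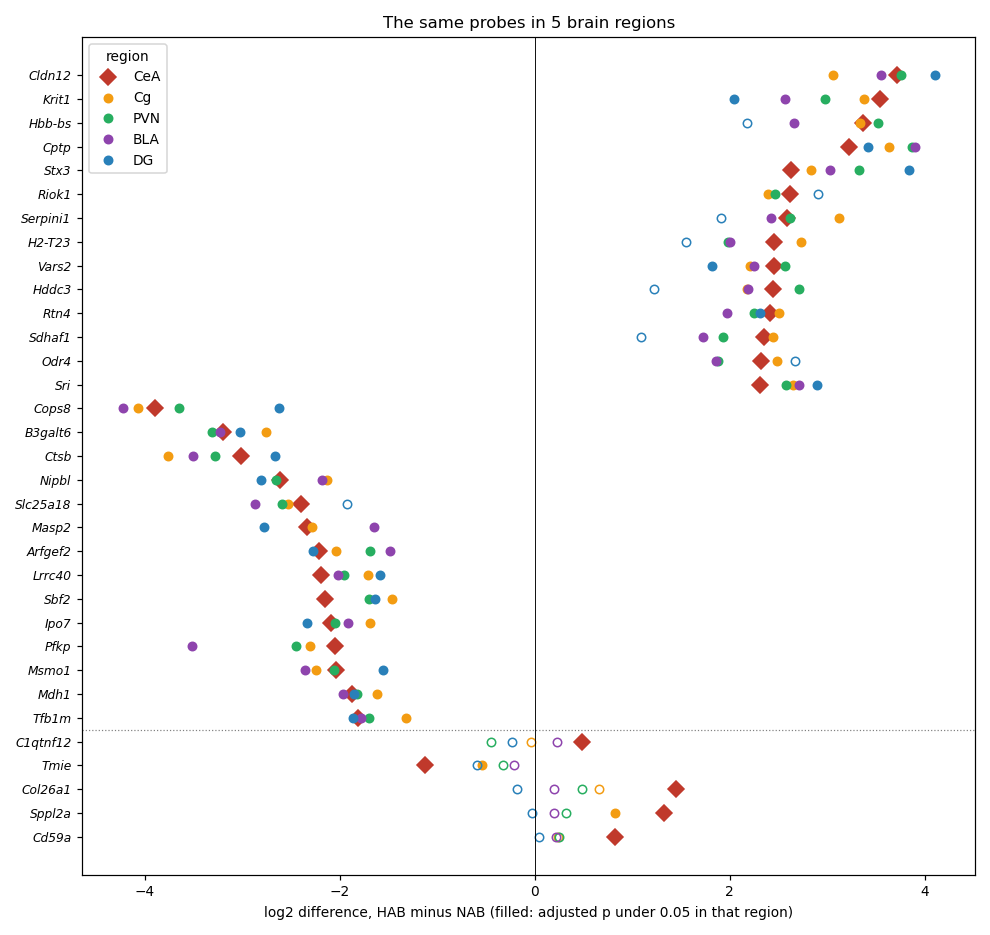
Log2 difference of HAB minus NAB in the CeA (diamonds) and in the Cg, PVN, BLA and DG (circles) for the probes of the 14 highest and 14 lowest named genes of the CeA, above the dotted line, and the 5 probes whose CeA difference departed from the other regions, below it; filled symbols passed an adjusted p of 0.05 in that region. The 28 lie on the same side of 0 in every region where they were tested (Cops8 between -4.23 and -2.62), while the 5 lie nearer 0 outside the CeA.

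Some mice departed from their line at single probes, a few of them in every region measured and others in only some regions. NAB mouse 15 read 34.2 for Serpini1 in the CeA, where the HAB arrays lay at 46.7 to 75.7 and the other 5 NAB arrays at 6.76 to 8.65, and in the Cg it read 56.5, where the HAB arrays lay at 85.4 to 118 and the other NAB arrays at 5.80 to 12.2. At Hddc3, a hydrolase related to bacterial stress alarmone enzymes, the same mouse read 71.7 in the CeA, between the HAB range of 87.7 to 101 and the other NAB arrays at 9.75 to 15.5, and 93.4 in the Cg, 92.6 in the BLA and 77.3 in the DG, where no other NAB mouse exceeded 31.3. HAB mouse 05 departed the other way at the Mtdh probe with the larger difference: it read 4.44 in the CeA, 3.56 in the Cg, 6.39 in the PVN and 6.76 in the BLA, while the other HAB mice read at least 17.6 in each of these regions and the NAB mice at most 10.6. HAB mouse 17, which read 45.6 for H2-T23 in the CeA, read 46.8 in the Cg and 33.1 in the PVN, within the range of the other HAB mice there (43.8 to 54.1 and 28.2 to 42.0). In the BLA it read 26.0, also within their range (25.6 to 30.2). In the DG it read 17.5, above the 2 other HAB mice (10.8 and 14.7). These mice were picked out after their values were seen.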

How the data were processed

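Expression in the central amygdala of 6 HAB, 6 NAB and 5 LAB mice was analysed within a series of 78 listed arrays (5 regions, 3 lines), of which 75 carried values. The authors summarised bead signals in BeadStudio and normalised all arrays together by QSpline, and the deposited values are probe intensities on a linear scale. All arrays of a region were hybridised in 1 batch; which arrays shared a slide is not given in the sources used here. A second deposited table was not used, since its 156 per-sample columns carry names that match no label.

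Intensities were log2-transformed without further scaling. Of 46643 probes, 32794 had 1 gene symbol in the platform annotation, 55 had several and 13794 were not listed; 32722 were matched to RefSeq symbols by Entrez number. Background was the 95th percentile of 1305 odorant and pheromone receptor probes on each array, and a probe was tested if it exceeded it on at least as many of the 17 arrays as the smallest line held. Differences were fitted with limma 3.58.1 (R 4.3.3) over the 3 lines, with Benjamini-Hochberg adjustment over all tested probes and a threshold of 0.05, after the fit was checked on simulated data. A joint fit of all 75 arrays with the mouse as a random block compared the CeA difference with the mean of the other regions. Where every array of a line was at background, the text gives a bound as fold, and figures plot the fitted value. Named were the 14 highest and 14 lowest called genes whose HAB and NAB arrays did not overlap, every called member of 28 gene lists and every gene with 2 or more called probes. Members and lists were chosen with earlier results of these data known. The lists are not complete, so their counts of called genes hold for the listed members only. Arrays are of separate mice, so p-values measure the spread between mice of a line, and the number of arrays limits their precision. Alternatives were other scalings, filters, variance models, blocks and leaving out each array.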

Additional observations from a re-analysis of the deposited data

Results flagged for a closer look

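Among 152 groups of 6 arrays checked (76 named probes in HAB and in NAB), 10 had a highest or lowest array that stood apart from the other 5 by Dixon's criterion at the 95% level. Chance flags about 1 in 20 groups. NAB mouse 15 accounted for 4 of the 10: Hbb-bs at 109, where the HAB arrays lay at 168 to 423 and the other NAB arrays at 13.0 to 23.7, Serpini1 at 34.2, Hddc3 at 71.7 and Slc25a18 at 65.6, in each case on the side of the HAB values. At Hbb-bs this mouse also stood above the other NAB mice in the Cg, BLA and DG (163, 182 and 98.4, against at most 85.6 in another NAB mouse there). HAB mouse 17 read 45.6 for H2-T23 (other HAB arrays 21.6 to 27.4) and 56.1 for Gabbr1 (other HAB arrays 72.9 to 83.5), HAB mouse 05 read 4.44 for Mtdh, HAB mouse 01 read 2.83 for Tfb1m, HAB mouse 20 read 189 for Map1lc3a and NAB mouse 08 read 141 for Gstp1.

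The CeA difference of HAB minus NAB departed from the mean of the other regions in 5 probes, by a tested interaction: C1qtnf12 by 0.608, Tmie by -0.708, Col26a1 by 1.16, Sppl2a by 0.998 and Cd59a by 0.638 on the log2 scale.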

How the results depend on the processing

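All 76 named probes kept their direction in every other setting except Rpl21 (-0.45) and Ltbp3 (-0.21) when probes of a gene were averaged, where probes of opposite sign were merged. Averaging gave 234 called genes in place of 370 called probes, with 157 higher in HAB, and ended the calls of Pfkp, Mdh1, Gnaq, Hmgn3, Slc1a2, Pdhb, Gabbr1, Meis2, Mtdh, Klc1, Abhd12 and the lower Ltbp3 probe. Other settings gave 285 (no filter) to 481 (joint fit of all regions with the mouse as replicate block). Of the 76 named probes, 8 lost their call after median centring, 9 after quantile normalisation, 12 with no filter, 6 with HAB and NAB arrays only, 7 with the label block, 2 in the joint fit and 1 with array weights, all of them probes of Ntsr2, Dnajc5 and the genes named next. Leaving out 1 array gave 299 (without HAB mouse 20) to 354 calls, with 168 to 224 higher in HAB, and 9 named probes of Abhd12, Dhcr7, Klc1, Ltbp3, Map1lc3a, Pde10a and Rtf2 lost their call in at least 1 such fit. The count of probes whose CeA difference departs from the other regions was 5, but 2 after median centring, 12 with 16 added before log2 and 14 with array weights. With the label's replicate number as a replicate block, 367 probes passed, 232 of them higher in HAB. The numbers do not pair the samples: deviations of same-numbered HAB and NAB arrays correlated at -0.12 to 0.437, and 2 of 6 HAB arrays correlated best with their own number. Values near background limit low genes such as Crhr1 and Ghrh.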
